A study of Homo sapiens with 6 samples.

Results

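Messenger RNA of 10 genes that encode the mechanistic target of rapamycin (mTOR) complexes and their nearest regulators was described in MM.1S, a cell line from a human multiple myeloma. The genes were taken by symbol and were MTOR, RPTOR, RICTOR, MLST8, DEPTOR, AKT1S1, TSC1, TSC2, RHEB and DDIT4. All 10 were among the 21850 genes of the deposited table, and all 10 were among the 13971 that passed the filter on low counts. Both groups of 3 libraries came from MM.1S cells infected with lentivirus that carried a short hairpin RNA. The control group (shNT) received the shscramble hairpin and is labelled WT, and the other group (shPRKCN) received PRKCN shRNA and is labelled as PRKCN knockdown. RNA was collected at day 3. Constitutive hairpins were cloned in a pLKO vector that also encodes GFP, according to the methods. The labels give a single kind of hairpin per group, so an effect of PRKCN loss and an effect of the hairpin itself cannot be told apart. The labels do not say which of the PRKCN hairpins was used or whether the replicates were separate cultures, so p-values measure only the spread between these libraries, which may be technical.

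mTOR is a serine/threonine kinase that works in a pair of protein complexes. In mTORC1 it binds the scaffold Raptor, senses amino acids and growth factors at the lysosome, and drives protein synthesis through ribosomal S6 kinases and the eIF4E-binding proteins. In mTORC2 it binds Rictor and phosphorylates AKT and SGK kinases. The TSC complex switches off the small GTPase Rheb, the direct activator of mTORC1. DEPTOR binds and restrains mTOR itself, and it is known for its unusually high level in myeloma cells with certain translocations. RNA-seq reads the mRNA level of these genes, not the phosphorylation or assembly of their proteins.

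Library totals ran from 35625564 to 37730003 counts. Libraries of different groups differed far more than libraries of the same group, with a chi-square per degree of freedom of 63.8 to 70.2 against 3.38 to 4.8. The targeted gene, listed as PRKD3, had 197, 202 and 189 FPKM (fragments scaled to gene length and library size) in shNT libraries and 84.8, 76.4 and 83.6 FPKM in the shPRKCN libraries, with a log2 fold change of −1.29 (SE 0.034, adjusted p = 8.2e-43, edgeR). All 8 plasma cell markers checked had at least 1 FPKM in every library, and their summed level was 5708 to 5838 FPKM in shNT and 5266 to 5492 FPKM in shPRKCN libraries. JCHAIN, at a mean of 4136 against 4236 FPKM, made most of that sum. Of the other plasma cell markers, XBP1 fell to 41.1%, TNFRSF17 to 45.7%, SLAMF7 to 51.2%, PRDM1 to 68.7% and MZB1 to 85.5% of the control level, SDC1 rose to 113% (each with an adjusted p below 0.05, edgeR), and CD38 was at 99.1% (adjusted p = 0.87, edgeR). Of 10 markers of other cell types, 8 stayed under 1 FPKM in every library, and the summed level of the 10 was 11.4 to 14.5 FPKM in shNT and 21.9 to 24.6 FPKM in shPRKCN libraries. The 2 exceptions were CD3E, at a mean of 7.93 against 21.3 FPKM, and HBB, at 5.01 against 1.61 FPKM. The part of these marker differences in the results on the mTOR genes was not tested. In bulk RNA, fewer cells of a kind and less RNA per cell cannot be told apart.

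All 10 genes differed between the groups at an adjusted p under 0.05 (edgeR quasi-likelihood test, Benjamini-Hochberg over the 13971 genes), and in all 10 the libraries of the groups did not overlap. Over every gene tested, 54.2% passed that limit and 58.8% had groups that did not overlap. MTOR, RPTOR, MLST8, DEPTOR, AKT1S1, TSC1 and TSC2 were higher in shPRKCN cells, against 26.5% of all tested genes that passed in this direction. RICTOR, RHEB and DDIT4 were lower, against 27.8% of all tested genes. With the fold limit of the study's methods (an absolute log2 fold change over 0.58, a 1.49-fold change), a gene that passed is termed called here. By that rule 2 genes, the mTOR inhibitors DEPTOR and AKT1S1, were called higher and 0 were called lower. The called share of all tested genes was 16.7%, with 6.15% called higher and 10.6% called lower. The 2 of 10 called is near that background, and the other 8 differences were smaller shifts of well-covered genes, since the members had 840 to 24122 counts per library. The median log2 fold change was 0.241 over the 10 genes and 0.00117 over all genes tested.

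**Figure D1:**
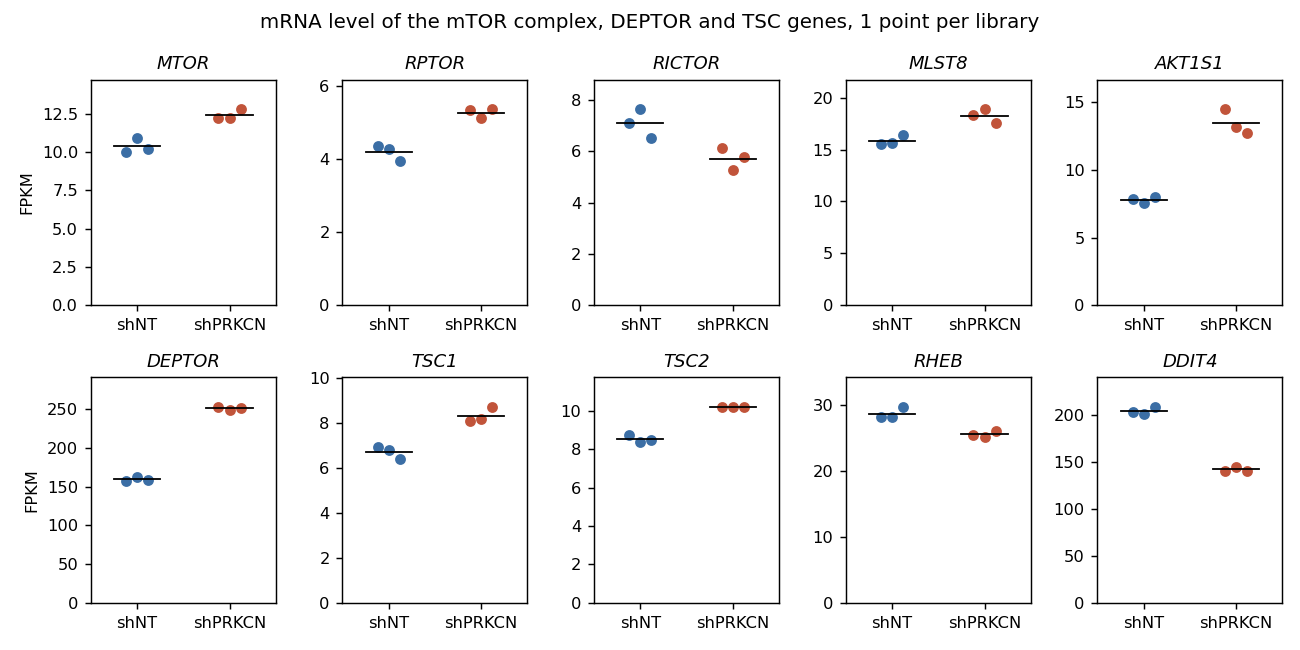
FPKM of each of the 10 genes (vertical axes, each from 0) in the 3 shNT and 3 shPRKCN libraries; each point is a library and each line a group mean. The groups do not overlap in any panel, with DEPTOR at 157 to 162 against 249 to 253 FPKM and DDIT4 at 201 to 209 against 141 to 145 FPKM.

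MTOR and MLST8, the genes for the kinase and for a subunit shared by both complexes, were modestly higher. MTOR (chr1:11106535-11262551, minus strand; coordinates are RefSeq on GRCh38.p14) encodes the catalytic subunit and had 10, 10.9 and 10.2 FPKM in shNT and 12.2, 12.2 and 12.8 FPKM in the shPRKCN libraries. Every shPRKCN library lay above every shNT library. The group means were 10.4 ± 0.467 and 12.4 ± 0.354 FPKM (SD, n = 3 each), a log2 fold change of 0.24 (SE 0.041, adjusted p = 6.7e-07, edgeR). MLST8 (chr16:2205454-2209453, plus strand) encodes the small subunit that binds the kinase domain, and its levels were 15.5, 15.6 and 16.4 FPKM in shNT and 18.3, 18.9 and 17.6 FPKM in shPRKCN libraries. This was the smallest rise among the 7 higher genes, with a log2 fold change of 0.19 (SE 0.049, adjusted p = 0.00092, edgeR). MLST8 shares 164 exon bases with BRICD5 on the opposite strand, a gene with only 21 to 42 counts per library.

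The subunits that define each complex moved in opposite directions. RPTOR (chr17:80544838-80966368, plus strand) encodes Raptor, which recruits mTORC1 substrates, and had 4.37, 4.27 and 3.96 FPKM in shNT and 5.34, 5.12 and 5.37 FPKM in shPRKCN libraries. All shPRKCN libraries were above all controls, and the log2 fold change was 0.31 (SE 0.058, adjusted p = 5.9e-06, edgeR). RICTOR (chr5:38937920-39074399, minus strand) encodes the scaffold of mTORC2, and its levels were 7.09, 7.64 and 6.52 FPKM in shNT and 6.12, 5.25 and 5.78 FPKM in shPRKCN libraries. RICTOR had the widest relative spread of the 10 genes, with a coefficient of variation of 7.91% in shNT and 7.68% in shPRKCN libraries, but the groups still did not overlap. It fell by 0.33 on the log2 scale (SE 0.051, adjusted p = 9.6e-08, edgeR), to 79.7% of the control level. The ratio of RPTOR to RICTOR within a library, a quantity chosen after the values were seen, was 0.616, 0.559 and 0.607 in shNT and 0.872, 0.974 and 0.927 in the shPRKCN libraries. The Raptor transcript thus stayed below the Rictor transcript per unit length in all 6 libraries, but the mean ratio moved from 0.594 ± 0.0308 to 0.925 ± 0.0512 (SD, n = 3 each).

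Both genes for mTOR-binding inhibitors rose, and they had the largest gains of the 10 genes. DEPTOR encodes a partner of mTOR in both complexes, and its level was 157, 162 and 159 FPKM in shNT and 253, 249 and 251 FPKM in the shPRKCN libraries. The libraries of each group lay close together and far from those of the other group. The means were 159 ± 2.32 and 251 ± 1.7 FPKM (SD, n = 3 each), with a log2 fold change of 0.64 (SE 0.033, adjusted p = 4.2e-27, edgeR), a 1.56-fold rise just outside the fold limit. AKT1S1 (chr19:49869033-49878356, minus strand) encodes PRAS40, an mTORC1 component that holds the complex back until AKT phosphorylates it. Its levels were 7.83, 7.59 and 8.02 FPKM in shNT and 14.5, 13.2 and 12.7 FPKM in shPRKCN libraries. The means were 7.81 ± 0.218 and 13.4 ± 0.91 FPKM (SD, n = 3 each), and the log2 fold change of 0.76 (SE 0.060, adjusted p = 5.4e-18, edgeR) was the largest of the 10 genes, a 1.7-fold rise. AKT1S1 shares 392 exon bases with TBC1D17 on the opposite strand. TBC1D17 itself went from a mean of 14.2 to 18.8 FPKM, with a log2 fold change of 0.39 (adjusted p = 7.5e-10, edgeR). Whether counting used strand is not given in the sources used here, and the part of TBC1D17 reads in the AKT1S1 value was not tested.

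Among the upstream switches, both TSC genes were higher while the GTPase they act on was lower. TSC1 (chr9:132891349-132945378, minus strand) encodes hamartin, the stabilizing subunit, and had 6.91, 6.81 and 6.4 FPKM in shNT and 8.07, 8.17 and 8.71 FPKM in shPRKCN libraries. Its log2 fold change was 0.29 (SE 0.046, adjusted p = 1.7e-07, edgeR). TSC2 (chr16:2047985-2089491, plus strand) encodes tuberin, the subunit that acts on Rheb, and had 8.75, 8.35 and 8.5 FPKM in shNT and 10.2 FPKM in each shPRKCN library. TSC2 rose by a log2 fold change of 0.24 (SE 0.046, adjusted p = 9e-06, edgeR). TSC2 shares 778 exon bases with PKD1 (log2 fold change 0.15, adjusted p = 0.011, edgeR) and 402 with NTHL1 (adjusted p = 0.97, edgeR), both on the opposite strand. RHEB (chr7:151466012-151519895, minus strand) had 28.1, 28.1 and 29.7 FPKM in shNT and 25.5, 25.2 and 26.1 FPKM in shPRKCN libraries. All shPRKCN libraries were below all controls. RHEB fell by 0.18 on the log2 scale (SE 0.045, adjusted p = 0.00041, edgeR), to 88.2% of the control level, the smallest change of the 10 genes in absolute size.

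DDIT4 moved opposite to DEPTOR and AKT1S1. DDIT4 (chr10:72273924-72276036, plus strand) encodes REDD1, a short-lived protein induced by hypoxia, glucocorticoids and energy stress that restrains mTORC1 through the TSC complex. Its levels were 203, 201 and 209 FPKM in shNT and 141, 145 and 141 FPKM in shPRKCN libraries. The groups were far apart relative to their spread, with means of 204 ± 4.23 and 142 ± 2.28 FPKM (SD, n = 3 each). DDIT4 fell by 0.54 on the log2 scale (SE 0.034, adjusted p = 1.9e-22, edgeR), to 68.6% of the control level, just inside the fold limit. Its exons overlap an antisense gene, DDIT4-AS1, over 847 bases, and that gene was absent by this symbol from the deposited counts.

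**Figure D2:**
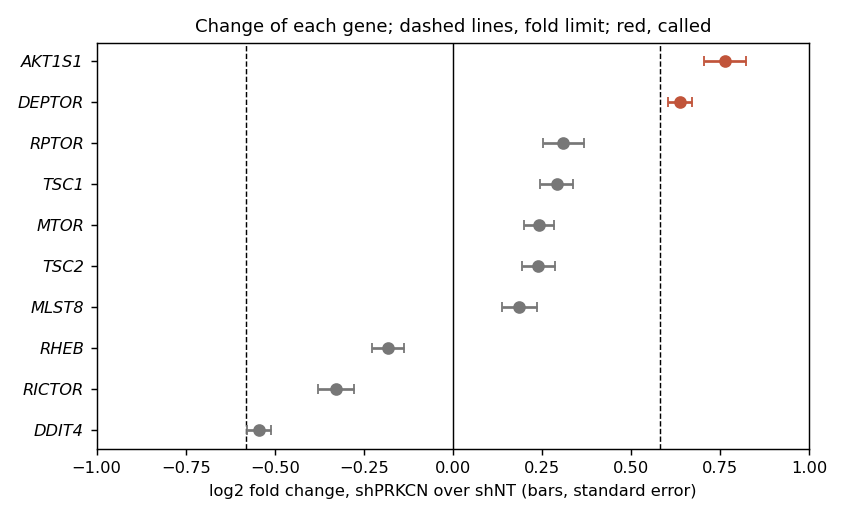
Log2 fold change of shPRKCN over shNT from edgeR for the 10 genes (horizontal axis; bars, standard error; dashed lines, the fold limit at 0.58 in each direction; red, called). AKT1S1 at 0.76 and DEPTOR at 0.64 lie beyond the limit, DDIT4 at −0.54 lies just inside it, and the other 7 lie between −0.33 and 0.31.

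RefSeq promoter sequence was at hand for 7 of the 10 genes, and not for MLST8, DEPTOR and AKT1S1. The genes without it, all higher in shPRKCN cells and including both called genes, were not searched. Promoter sequence is shown for the 3 genes that fell and for TSC2, the 4 of the 7 that held the letters ACGTG on either strand. These letters are the core of the hypoxia response element. ACGTG occurs in 18.5% of 35116 promoters of the same length. The palindrome CACGTG, bound by TFEB and MYC among others, contains ACGTG on both strands and occurs in 6.34% of them, and among the 7 it was in TSC2 only. The letters TGATGNAA, a form of the ATF4 element, occur in 3.14% and also matched TSC2 only, and TGTTTAC, a FOXO site, occurs in 2.98% and in 0 of the 7. Both strands were searched for each motif. The 250 bases before each gene's start are given 5′ to 3′ on the gene's own strand (RefSeq, GRCh38.p14), with matches in capitals. The match begins at position −125 in DDIT4, −206 in RICTOR and −81 in RHEB, counted from the gene's start, and in RHEB it is on the other strand and so reads CACGT. In TSC2 the CACGTG at −114 overlaps the TGATGNAA match at −110, so they form 1 run. These matches describe the letters in these windows, and binding was not measured. The background promoters were not matched to the members for base composition. Of the called genes of the wider pathway (below) with promoter sequence, FNIP2, which fell, and SGK1, which rose, held ACGTG. It was absent from LAMTOR5, SESN2, SESN3 and PRKAA2, which fell, and from DDIT4L, EIF4EBP2, ULK1 and PRR5, which rose. Whether these letters go with the direction of change was not tested.
DDIT4, chr10:72273674-72273923, plus strand: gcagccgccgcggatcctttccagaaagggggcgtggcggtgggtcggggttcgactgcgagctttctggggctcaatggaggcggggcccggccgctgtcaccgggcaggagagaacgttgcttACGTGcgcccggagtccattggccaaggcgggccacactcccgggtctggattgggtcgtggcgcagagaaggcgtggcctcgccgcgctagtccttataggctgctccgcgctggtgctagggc
RICTOR, chr5:39074400-39074649, minus strand: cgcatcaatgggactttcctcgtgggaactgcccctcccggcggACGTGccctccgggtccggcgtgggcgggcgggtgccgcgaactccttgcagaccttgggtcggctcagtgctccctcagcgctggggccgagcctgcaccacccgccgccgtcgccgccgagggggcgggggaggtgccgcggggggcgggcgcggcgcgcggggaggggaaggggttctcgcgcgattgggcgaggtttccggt
RHEB, chr7:151519896-151520145, minus strand: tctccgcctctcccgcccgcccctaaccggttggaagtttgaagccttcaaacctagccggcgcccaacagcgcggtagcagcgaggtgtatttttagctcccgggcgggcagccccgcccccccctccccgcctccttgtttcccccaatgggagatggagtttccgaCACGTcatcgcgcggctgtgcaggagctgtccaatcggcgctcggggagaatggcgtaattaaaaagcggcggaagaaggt
TSC2, chr16:2047735-2047984, plus strand: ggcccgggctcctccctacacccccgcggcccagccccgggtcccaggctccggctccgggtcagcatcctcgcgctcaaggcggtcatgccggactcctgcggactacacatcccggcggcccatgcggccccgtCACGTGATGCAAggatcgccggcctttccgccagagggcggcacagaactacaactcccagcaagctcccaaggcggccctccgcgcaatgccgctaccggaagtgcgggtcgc

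Levels per unit length spanned a wide range, and the top of the order changed. In shNT cells DDIT4 was the most abundant of the 10 at 204 FPKM, above 98.4% of all tested genes, followed by DEPTOR at 159 FPKM. In shPRKCN cells DEPTOR was first at 251 FPKM, above 98.7% of tested genes, and DDIT4 followed at 142 FPKM, above 97.7%. The libraries of these neighbours did not overlap in either group, and their FPKM ratio within a library (DEPTOR over DDIT4, chosen after the values were seen) went from 0.779 ± 0.0239 to 1.77 ± 0.0375 (SD, n = 3 each). RHEB and MLST8 came next in both groups. In shNT cells MTOR, TSC2, AKT1S1, RICTOR, TSC1 and RPTOR followed in that order, and the libraries of AKT1S1 overlapped those of RICTOR, as did those of RICTOR and TSC1. In shPRKCN cells AKT1S1, at 13.4 FPKM, overlapped MTOR at 12.4 FPKM, while RICTOR, at 5.72 FPKM, overlapped RPTOR at 5.27 FPKM, the least abundant member in both groups. Of the summed FPKM of the 5 mTORC1 subunit genes (MTOR, RPTOR, MLST8, AKT1S1 and DEPTOR), DEPTOR made 80.6% in shNT and 83.5% in shPRKCN cells and MTOR made 5.26% and 4.14%.

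Each gene was also set against MTOR in the same library, which asks whether partners moved along with the kinase. With 3 libraries against 3, the exact permutation test over libraries cannot give a 2-sided p under 0.1, so none of the 9 ratios could pass 0.05. RPTOR, MLST8, TSC1 and TSC2 had ratios to MTOR whose groups overlapped. The change in log2 ratio was 0.07 ± 0.056 (SE) for RPTOR (exact p = 0.3), −0.06 ± 0.074 for MLST8 (exact p = 0.6), 0.05 ± 0.046 for TSC1 (exact p = 0.4) and −0.00 ± 0.061 for TSC2 (exact p = 0.9). These 4 small changes moved with single libraries. Without shNT library 1 the change was 0.12 for RPTOR and 0.09 for TSC1, and without shPRKCN library 3 it was −0.01 for MLST8. For TSC2 the mean ratio was 0.824 in shNT and 0.821 in shPRKCN cells. The other 5 ratios had groups that did not overlap (exact p = 0.1 for each, the smallest possible). AKT1S1 and DEPTOR were higher relative to MTOR in shPRKCN libraries, by 0.52 ± 0.094 and 0.40 ± 0.036 (SE) on the log2 scale. RHEB, RICTOR and DDIT4 were lower relative to MTOR, with differences in log2 ratio of −0.42 ± 0.055, −0.57 ± 0.079 and −0.79 ± 0.059 (SE). The mean FPKM ratio of AKT1S1 to MTOR was 0.754 in shNT and 1.08 in shPRKCN cells, and that of DDIT4 to MTOR was 19.7 and 11.4.

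**Figure D3:**
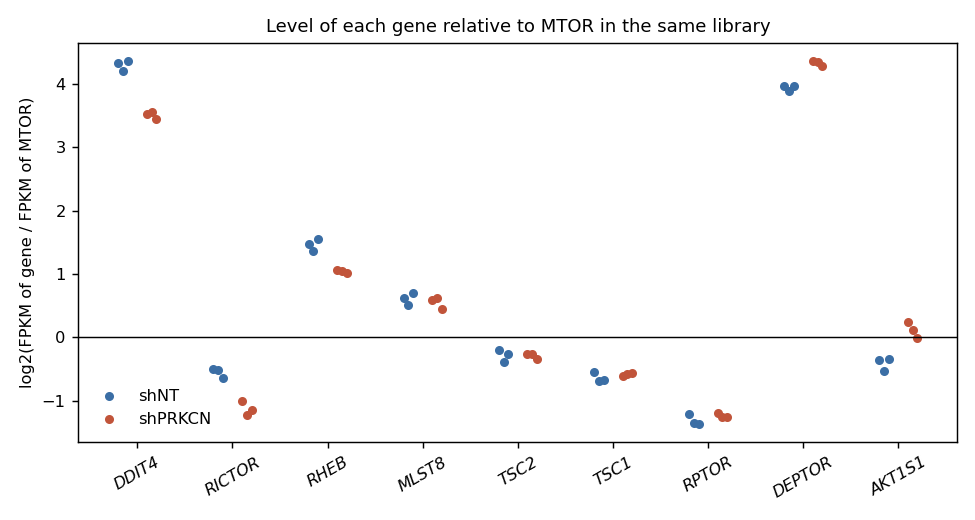
Log2 of each gene's FPKM over that of MTOR in the same library (vertical axis; 0 is equal level; blue points, shNT; red points, shPRKCN; 3 libraries each). TSC2, TSC1, RPTOR and MLST8 overlap between the groups, and DDIT4, RICTOR and RHEB sit lower and DEPTOR and AKT1S1 higher in shPRKCN libraries.

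The wider pathway was read from 6 lists by role, with 78 genes in all, of which 77 were in the table and 76 were tested. Of the 76, 5 were called higher and 6 lower, a share of 14.5%, and 25 were higher and 19 lower (adjusted p below 0.05) without the fold limit, a share of 57.9%. Both shares were near those over all genes, and the median log2 fold change was 0.0302.

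Among the other complex subunits and assembly genes, 2 of 8 were higher and 2 were lower (adjusted p under 0.05), and the median log2 fold change was 0.0486. MAPKAP1, which encodes the mTORC2 subunit SIN1, rose from 24.1 ± 1.07 to 29.3 ± 0.574 FPKM (SD, n = 3 each), a log2 fold change of 0.27 (SE 0.042, adjusted p = 1.7e-07, edgeR), while RICTOR of the same complex fell. PRR5, which encodes the mTORC2 subunit Protor-1, had 28, 45 and 56 counts in shNT and 65, 68 and 75 counts in shPRKCN libraries. It was called at a log2 fold change of 0.65 (SE 0.266, adjusted p = 0.033, edgeR). The call was lost when any library but shNT 3 was left out, with an adjusted p of 0.05 to 0.2, and without shNT library 1 the value was 0.44. Its homologue PRR5L had a log2 fold change of −0.05 (SE 0.144, adjusted p = 0.79, edgeR).

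Of 13 genes for Rag GTPases, the Ragulator and folliculin partners, which bring mTORC1 to the lysosome when amino acids are present, 5 were higher and 4 lower (adjusted p below 0.05), with a median log2 fold change of 0.102. The called genes, LAMTOR5 and FNIP2, were both lower. LAMTOR5, a Ragulator subunit, fell from 46.7 ± 1.91 to 28.8 ± 1.54 FPKM (SD, n = 3 each), a log2 fold change of −0.72 (adjusted p = 6.3e-17, edgeR). FNIP2, a folliculin partner, fell from 4.17 ± 0.18 to 2.71 ± 0.0987 FPKM, a log2 fold change of −0.64 (adjusted p = 6.4e-17, edgeR). RRAGC and RRAGD, a pair of Rag GTPases named after their values were seen, went opposite ways, from 14.3 to 19.4 FPKM (adjusted p = 1.2e-10, edgeR) and from 27.8 to 22.8 FPKM (adjusted p = 3.4e-10, edgeR). Of 12 genes of GATOR and KICSTOR, the amino acid relay upstream of the Rags, 4 were higher and 2 were lower (adjusted p under 0.05) and 0 were called, with a median log2 fold change of 0.0417.

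Of the stress and nutrient inhibitors, 3 of 7 genes (42.9%) were called, 1 higher and 2 lower, where 16.7% of all tested genes were called, and the median log2 fold change was 0.0463. DDIT4L, the paralogue of DDIT4 that encodes REDD2, had 153, 148 and 207 counts in shNT and 611, 682 and 739 counts in shPRKCN libraries. Its log2 fold change of 1.96 (SE 0.108, adjusted p = 1.8e-25, edgeR) was opposite in sign to that of DDIT4, although at 6.98 ± 0.608 FPKM (SD, n = 3) it remained below DDIT4 at 142 FPKM in shPRKCN cells. The sestrins SESN2 and SESN3, stress-responsive inhibitors of mTORC1, were lower. SESN2 fell from 8.82 ± 0.346 to 4.24 ± 0.178 FPKM (SD, n = 3 each), a log2 fold change of −1.08 (adjusted p = 3.4e-22, edgeR), and SESN3 fell from 5.74 ± 0.122 to 3.36 ± 0.191 FPKM, a log2 fold change of −0.79 (adjusted p = 2e-21, edgeR).

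Of 18 genes for PI3K, AKT and AMPK inputs, 7 were higher and 4 lower (adjusted p below 0.05), the median log2 fold change was 0.0651, and 1 gene was called. It was PRKAA2, a catalytic subunit of the energy sensor AMPK, with 34, 45 and 31 counts in shNT and 16, 5 and 3 counts in shPRKCN libraries. Its log2 fold change of −2.22 (SE 0.455, adjusted p = 2.7e-05, edgeR) rests on few reads, and without shPRKCN library 1 it was −3.20. PRKAA2 had a mean of only 0.0881 against 0.019 FPKM. PRKAA1, the other AMPK catalytic subunit gene, named after its values were seen, had 11.2 against 10.1 FPKM. The log2 fold change of PRKAA1 was −0.16 (adjusted p = 0.0015, edgeR).

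Substrates and outputs of mTOR were mixed, with 6 of 18 tested genes higher and 4 lower (adjusted p below 0.05) and a median log2 fold change of −0.00618. The translation repressors EIF4EBP2 and EIF4EBP1 diverged. EIF4EBP2 rose from 18.7 ± 0.725 to 32.8 ± 0.263 FPKM (SD, n = 3 each), a log2 fold change of 0.79 (adjusted p = 3.4e-29, edgeR). EIF4EBP1 fell by 0.53 on the log2 scale (adjusted p = 5.3e-09, edgeR), from 27.8 ± 1.57 to 19.5 ± 1.29 FPKM. EIF4E, the cap-binding protein they hold, had a log2 fold change of −0.12 (adjusted p = 0.028, edgeR), which did not pass without shNT library 2 or shPRKCN library 2 (adjusted p = 0.11 for each) or under 4 other alternatives. RPS6KB1, which encodes an S6 kinase, had a log2 fold change of −0.11 (adjusted p = 0.084, edgeR) and did not pass. The other S6 kinase gene, RPS6KB2, named after its values were seen, was more abundant and rose. It went from 45.8 ± 1.58 to 63.2 ± 0.88 FPKM (SD, n = 3 each), a log2 fold change of 0.45 (adjusted p = 4.5e-15, edgeR), and was not called. For RPS6KB1 the value was −0.03 (adjusted p = 0.7) without shPRKCN library 2, −0.07 (adjusted p = 0.34) without shNT library 2 and −0.16 (adjusted p = 0.034, which passes) without shPRKCN library 3. RPS6, its ribosomal substrate, fell by 0.15 on the log2 scale (adjusted p = 0.00015, edgeR), from 857 ± 25.5 to 783 ± 41.9 FPKM. ULK1, the autophagy kinase that mTORC1 inhibits, rose from 2.6 ± 0.18 to 4.04 ± 0.325 FPKM, a log2 fold change of 0.62 (adjusted p = 4.3e-10, edgeR), just over the fold limit, and at 0.57 without shNT library 1 or shPRKCN library 3 it was under that limit.

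SGK1 and NDRG1 had the largest mRNA differences among the called outputs, in opposite directions. Phosphorylation of their proteins, which is what reads out mTORC2, was not measured here. SGK1, a kinase that mTORC2 phosphorylates, rose from 57.1 ± 0.0766 to 111 ± 1.36 FPKM (SD, n = 3 each), a log2 fold change of 0.94 (SE 0.034, adjusted p = 2.9e-35, edgeR). NDRG1, whose protein SGK1 phosphorylates and whose gene responds to hypoxia, fell from 116 ± 1.89 to 56.8 ± 1.24 FPKM, a log2 fold change of −1.05 (SE 0.034, adjusted p = 4.3e-38, edgeR).

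**Figure D4:**
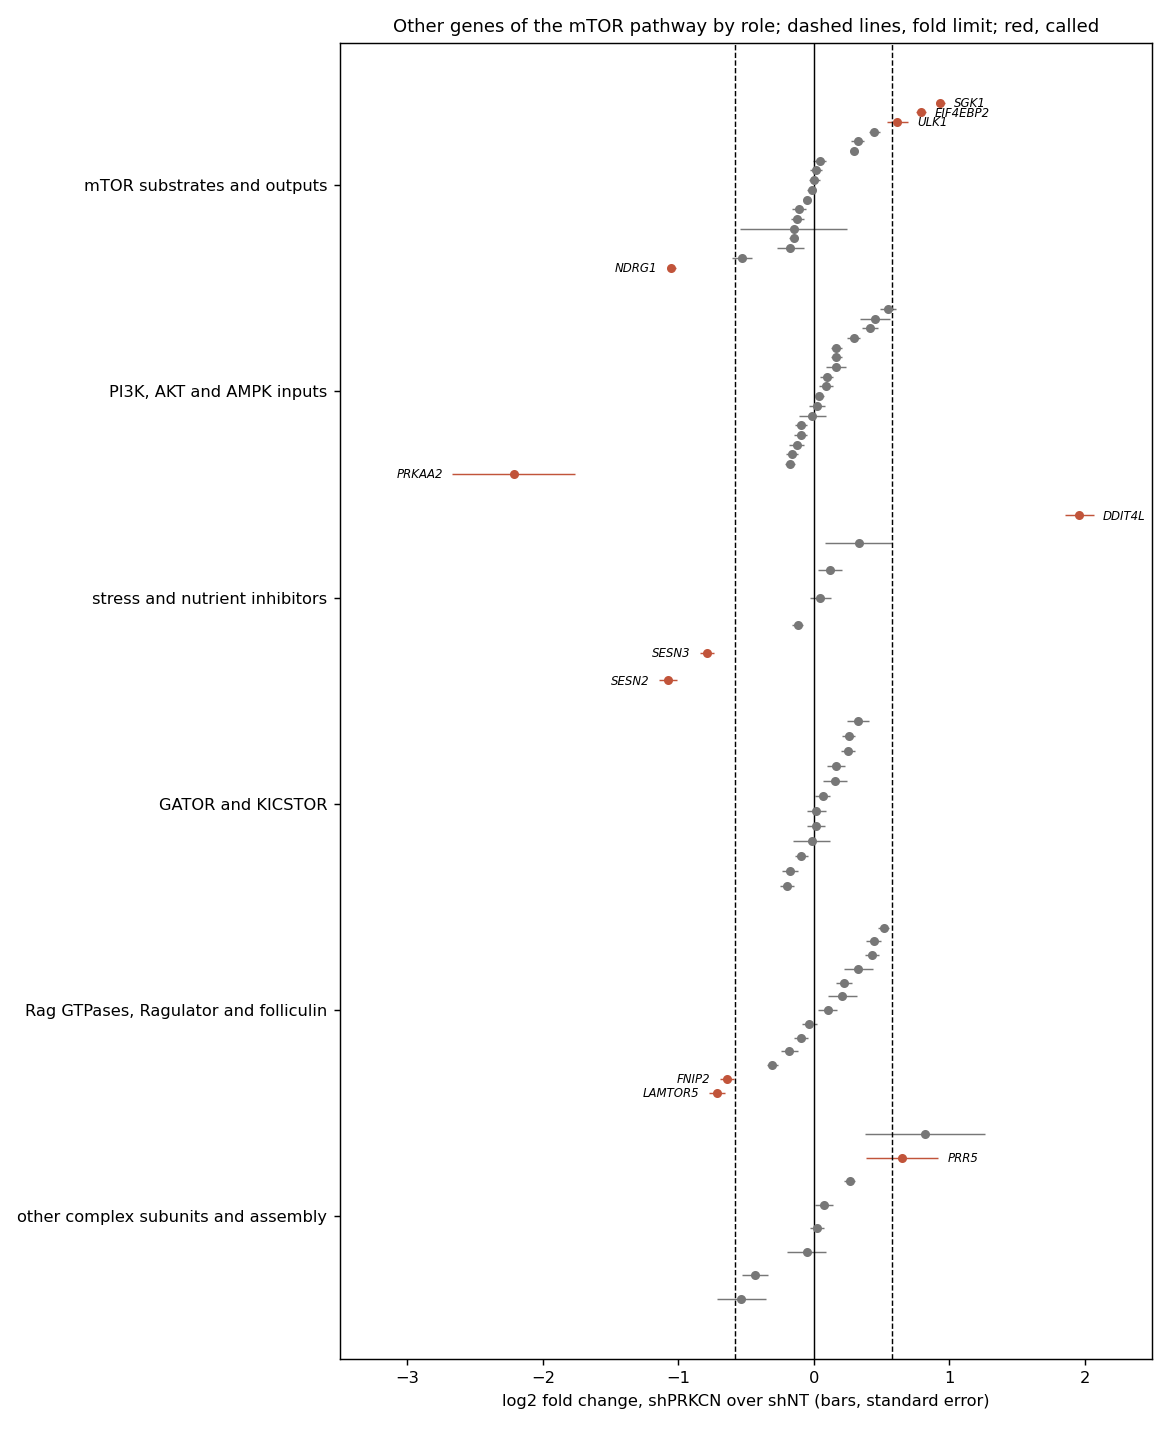
Log2 fold change of shPRKCN over shNT (horizontal axis; bars, standard error) for the 76 tested pathway genes, grouped by role and sorted within each list; red and named, called; dashed lines, the fold limit. DDIT4L at 1.96 and PRKAA2 at −2.22 lie farthest out, and no GATOR or KICSTOR gene is called.

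Genes with a profile most like that of DEPTOR and of AKT1S1 were sought by the root mean square distance between log2 CPM profiles (counts scaled by the TMM library size), each centred on its mean over the 6 libraries, among 11659 genes that averaged 50 counts or more. PSEN2, a presenilin, was closest to DEPTOR at a distance of 0.00728 log2 units, followed by SET at 0.0148 and TAPBP, which encodes tapasin of the antigen-loading complex, at 0.0205. Closest to AKT1S1 were FJX1 at 0.0347, CD79B, a chain of the B cell receptor, at 0.0348 and PLAGL2 at 0.0401. DEPTOR, PSEN2 and SET each had a log2 fold change of 0.64. A like fold change follows from the selection, since the distance was taken over the same 6 libraries. Shared regulation of these genes was not tested.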

How the data were processed

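RNA-seq was analysed in 6 libraries of MM.1S cells, 3 shNT and 3 shPRKCN, grouped by the treatment in the labels. The authors deposited raw counts for 21850 genes and FPKM for the same genes and libraries. The submitters' processing notes name FastQC, HISAT2, StringTie and GRCh38.p14, and the counting program, annotation and strandedness are not given in the sources used here, which leaves overlapping genes uncertain. The study's methods name DESeq2, with limits of 0.05 on the q-value and 0.58 on the absolute log2 fold change.

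Here edgeR 4.0.16 in R 4.3.3 was used on the deposited counts (TMM scaling, filterByExpr, quasi-likelihood test, Benjamini-Hochberg over 13971 genes) with the same limits, and steps were tested on simulated data. Levels are the deposited FPKM. Ratios to MTOR were compared with a 2-sided exact permutation test over libraries. The alternatives tried were glmTreat, DESeq2 1.42.0, limma 3.58.1 on log2 FPKM (pseudocounts of 1 and 0.1), scaling by library size, upper quartile or RLE, a filter of 10 counts in every library or none, a replicate block, and each library left out.

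The members and pathway lists were chosen with earlier results of these data known. Named are the members, every called pathway gene, MAPKAP1, PRR5, PRR5L, RPS6KB1, RPS6, EIF4EBP1, EIF4E and PRKD3, and for likeness the 3 genes closest to DEPTOR and to the member with the largest change. RRAGC, RRAGD, RPS6KB2, PRKAA1, the markers and the overlapping genes were named outside this rule. Gene overlaps are those of GENCODE, and promoters and positions those of RefSeq. Of the pathway genes, SGK3 was absent by that symbol from the deposited genes, and EIF4EBP3 had too few counts to be tested.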

Additional observations from a re-analysis of the deposited data

How the results depend on the processing

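All 10 members kept their direction and an adjusted p under 0.05 in each of 15 alternatives, with the largest adjusted p, 0.011, for RICTOR. Log2 fold changes ran from 0.63 to 0.66 for DEPTOR, from 0.71 to 0.82 for AKT1S1 and from −0.57 to −0.52 for DDIT4. Against a fold of 0.58 itself (glmTreat), 1 member, AKT1S1, was called in place of 2, and calls over all genes went from 2334 to 1160. With limma on log2(FPKM + 1), 7 pathway genes were called in place of 11, and 968 genes in all. The pseudocount lowers the fold of low genes, and the values were 0.25 for PRR5, −0.48 for FNIP2, −0.09 for PRKAA2 and 0.49 for ULK1. With each library left out, 2 members and 10 to 11 pathway genes were called. PRR5 ran from 0.44 to 0.87 and was lost without shNT replicate 1 or 2 or any shPRKCN replicate (adjusted p up to 0.2), and ULK1 was under the fold limit without shNT replicate 1 (0.57) or shPRKCN replicate 3 (0.57). PRR5L ran from −0.145 to 0.0248, its sign changing without shNT replicate 1. The log2 ratio of TSC2 to MTOR ran from −0.0548 to 0.0388 and changed sign without shNT replicate 1 (0.0388) or 3 (0.0087) or shPRKCN replicate 3 (0.0224). The other small log2 ratios to MTOR ran from −0.105 to −0.0055 for MLST8, from 0.0236 to 0.0929 for TSC1 and from 0.0395 to 0.1205 for RPTOR. EIF4E had an adjusted p over 0.05 with library size scaling (0.071), no filter (0.058) and limma (0.057 and 0.056), and without shNT or shPRKCN replicate 2 (0.11). RPS6KB1 ran from −0.155 to −0.0279, with an adjusted p of 0.034 to 0.7. PRKAA2 ran from −3.2 to −1.82 with each library left out, and with limma it was −0.66 (pseudocount of 0.1) and −0.09 (pseudocount of 1). Changing the scaling moved the median of all genes by at most 0.019 on the log2 scale. Few counts limit PRR5 and PRKAA2.

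Same-numbered libraries did not deviate together (r = −0.0593, −0.02 and −0.0156). This cannot show whether they shared a culture or an infection round, which the labels do not say. With a replicate block 2 members were called, 10 passed without the fold limit, 11 pathway genes were called and 2317 genes were called over the table.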
